A study of Mus musculus with 8 samples.

Results

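The G1 cyclins and their partners were described in R1/E mouse embryonic stem cells (ESCs) depleted of Rad21, a core subunit of the cohesin ring. The genes were Ccnd1, Ccnd2, Ccnd3, Ccne1, Ccne2, Cdk2, Cdk4, Cdk6 and Cdkn1b, chosen by their role, and Ccno, chosen by its large rise in the comparison described here. All 10 genes were found among the 18193 genes that the platform annotation ties to a probe set with a single symbol, and they were read by 27 of 34945 such probe sets. Values of Ccno are therefore a description and were not tested.

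A group of 4 arrays came from cells transfected with Rad21 esiRNA, a mixture of short interfering RNAs cut by an enzyme from a longer double strand, and a control group of 4 arrays from cells transfected with esiRNA against luciferase (Luc), a gene that mouse cells lack. Both groups were the same ESC line, received 800 ng esiRNA with Lipofectamine2000 in wells of 80000 cells and were measured after 48 h on Affymetrix arrays. The arrays are labelled as biological replicates 1 to 4 in each group. The labels do not say which Rad21 esiRNA was used, so on these arrays effects of a single reagent cannot be told apart from the loss of Rad21. Separately, the study reports changes of stem cell and lineage markers by quantitative PCR with independent Rad21 esiRNAs.

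Values are on a log2 scale, so a change of 1 is a doubling, and changes are Rad21 esiRNA minus Luc esiRNA. Array medians ran between 3.08 and 3.16, and arrays of 1 group correlated at 0.998 to 0.999. Values under about 4 lie at the low end of the scale, where GCRMA compresses differences. Rad21 itself was lower at all 3 of its probe sets, at 16.6%, 33.4% and 50.6% of its level in Luc esiRNA cells. Of 8 ESC markers, 6 fell and 0 rose, with the deepest falls in Fgf4 (-1.71), Nanog (-0.83) and Pou5f1 (-0.55). Of 8 endoderm markers, 3 rose, Foxa2 (4.63), Dab2 (2.06, at 1 of 4 probe sets) and Apob (1.59, at 1 of 2), and 0 fell. Of 10 fibroblast markers Thy1 fell (-0.56) and 0 rose. Among all genes, 10.1% rose and 12.6% fell by the same test. The summed values of the ESC markers were 108 to 109 on the Rad21 esiRNA arrays and 113 on the Luc esiRNA arrays, those of the endoderm markers 31.3 to 32.6 and 23.1 to 23.9, and those of the fibroblast markers 30.6 to 31.8 and 30.0 to 31.3. Of the endoderm markers 5 and of the fibroblast markers 8 stayed at the low end in both groups. In whole-culture RNA, fewer cells of a type and less RNA per cell cannot be told apart, and the part of a changed cell makeup in the values below was not tested.

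D-type cyclins bind Cdk4 and Cdk6 and, by phosphorylating Rb and its relatives, release E2F transcription factors. E-type cyclins, which are E2F targets, then activate Cdk2 and take the cell into S phase. Cdkn1b encodes p27, which binds and inhibits the cyclin E and Cdk2 complex, and Ccno encodes an atypical cyclin known from the multiplication of centrioles in multiciliated cells. ESCs are known for a short G1 phase with high cyclin E and Cdk2 activity and largely phosphorylated Rb.

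Promoters from RefSeq (GRCm38.p6, 250 bases before to 50 after the start site) were matched for 7 of the 10 genes by Entrez ID. No promoter was matched for Ccnd1, Ccnd2 or Ccne2, so these were not searched. Those of Ccno (chr13:112987552-112987851, plus strand), of both annotated starts of Ccnd3 (chr17:47504801-47505100 and chr17:47593217-47593516, plus strand) and of Cdk2 (chr10:128705002-128705301, minus strand) are shown because these genes carry the differences below. The promoter of Cdk4 (chr10:127063285-127063584, plus strand) is shown for contrast. Capitals mark matches, on either strand, to an E2F motif (TTTNNCGC), an E-box (CACGTG, which reads alike on both strands), a GC box (GGGCGG), an RFX half-site (GTTGCC) and the box of the letters CCAAT, each written 5′ to 3′ on the gene's strand.
Ccno: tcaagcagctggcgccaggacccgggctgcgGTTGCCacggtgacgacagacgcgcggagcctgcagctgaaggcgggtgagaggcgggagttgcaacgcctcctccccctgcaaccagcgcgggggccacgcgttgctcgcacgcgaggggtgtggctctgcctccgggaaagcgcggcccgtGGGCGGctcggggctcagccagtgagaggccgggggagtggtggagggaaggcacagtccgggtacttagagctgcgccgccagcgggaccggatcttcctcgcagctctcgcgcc
Ccnd3, upstream start: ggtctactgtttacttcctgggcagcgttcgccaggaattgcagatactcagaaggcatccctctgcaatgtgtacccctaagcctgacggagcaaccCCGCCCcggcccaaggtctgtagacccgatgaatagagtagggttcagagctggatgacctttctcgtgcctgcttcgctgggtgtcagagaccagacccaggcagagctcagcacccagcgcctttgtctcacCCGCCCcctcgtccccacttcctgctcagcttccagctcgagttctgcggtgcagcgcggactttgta
Ccnd3, downstream start: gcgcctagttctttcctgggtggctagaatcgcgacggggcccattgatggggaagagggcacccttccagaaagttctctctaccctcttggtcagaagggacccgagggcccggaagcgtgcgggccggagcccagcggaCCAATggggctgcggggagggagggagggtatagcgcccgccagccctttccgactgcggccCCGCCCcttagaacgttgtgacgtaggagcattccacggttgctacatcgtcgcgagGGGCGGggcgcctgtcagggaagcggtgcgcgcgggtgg
Cdk2: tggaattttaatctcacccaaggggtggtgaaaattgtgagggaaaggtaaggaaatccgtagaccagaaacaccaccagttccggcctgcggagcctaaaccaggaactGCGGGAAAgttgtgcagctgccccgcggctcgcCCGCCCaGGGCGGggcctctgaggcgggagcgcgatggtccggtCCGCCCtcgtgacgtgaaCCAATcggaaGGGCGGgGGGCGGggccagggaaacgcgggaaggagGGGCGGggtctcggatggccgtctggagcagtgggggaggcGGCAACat
Cdk4: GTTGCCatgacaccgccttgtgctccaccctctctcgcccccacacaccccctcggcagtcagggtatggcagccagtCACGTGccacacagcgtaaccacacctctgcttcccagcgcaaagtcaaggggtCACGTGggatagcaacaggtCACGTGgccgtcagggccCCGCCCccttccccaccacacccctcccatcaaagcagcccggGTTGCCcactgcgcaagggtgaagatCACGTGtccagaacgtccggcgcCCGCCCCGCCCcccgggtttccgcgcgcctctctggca

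The Ccno promoter held 1 RFX half-site at position -219 from the start and 1 GC box, with no match to the E2F motif or the E-box. Each Ccnd3 promoter held 2 GC boxes, and the downstream one also held a CCAAT box. The Cdk2 promoter held an E2F motif at position -140, 6 GC boxes, a CCAAT box at -45 and an RFX half-site at 43. The Cdk6 promoter, not printed, also held an E2F motif, at position -198, and an E-box at -220. The Cdk4 promoter held 4 E-boxes, 2 RFX half-sites and 3 GC boxes, of which 2 overlap. Of 32851 mouse promoters of this length, 5.17% held the E2F motif, 7.15% the E-box, 12.5% the RFX half-site, 35.7% the GC box and 37.4% the CCAAT box. A GC box was found for 6 of the 7 members with a promoter, counted by gene. The member promoters held 59.3% to 76% GC, beside a median of 52.7% for all promoters. The GC box count was not adjusted for this base content. A match of letters is a description and does not show that a factor binds there.

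Across 45037 probe sets, 14.9% were called in limma's moderated test at an adjusted p under 0.05, with 6.47% rising and 8.40% falling after Rad21 esiRNA. Without Ccno, 4 of the 26 member probe sets were called (15.4%), a share near that background, with 1 rising and 3 falling. Read at the brightest probe set of each gene, 3 of 9 members were called, with 1 rising and 2 falling, against 22.6% of all genes (10.1% rising and 12.6% falling). The 9 genes had a median change of -0.06, beside 0.00 for all genes. The groups did not overlap at 4 of the 26 probe sets, against 19.4% of all probe sets, and 5 of the 26 lay at the low end in both groups. The shares of all probe sets and of all genes, here and beside the gene lists below, include dim ones. Only 18983 of the 45037 probe sets had a mean of at least 4, and with that minimum 7645 were called. A list of well-expressed genes can therefore exceed the share of all genes without standing out among expressed genes. In the plot of values by array, Ccnd3 and Ccno stand apart from the other members.

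**Figure D1:**
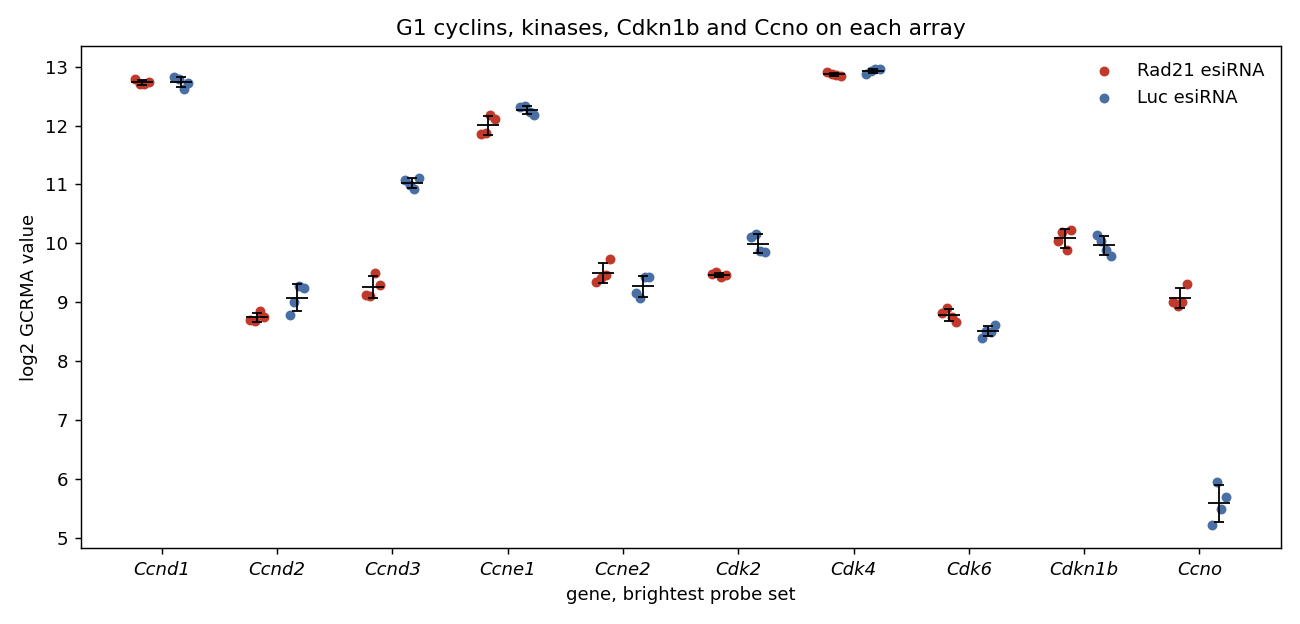
Log2 GCRMA value (vertical axis) of each of the 10 genes at its brightest probe set on the 4 Rad21 esiRNA arrays (left, red) and the 4 Luc esiRNA arrays (right, blue); bars give the mean and SD. Ccnd3 averages 9.26 and 11.02 and Ccno 9.07 and 5.58 in the Rad21 esiRNA and Luc esiRNA groups, while Ccnd1 (12.74 in each) and Cdk4 (12.87 and 12.93) lie nearly level.

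Among the D-type cyclins, Ccnd3 carried the deep fall. Its brightest probe set, 1415907_at, read 9.12, 9.11, 9.50 and 9.30 on the Rad21 esiRNA arrays, against 11.07, 10.99, 10.92 and 11.11 on the Luc esiRNA arrays. Every Rad21 esiRNA array lay more than a log2 unit below every Luc esiRNA array. The means were 9.26 ± 0.19 in Rad21 esiRNA cells and 11.02 ± 0.09 in Luc esiRNA cells (SD, n = 4 each), a change of -1.76 ± 0.09 (SE, limma adjusted p = 4.0e-05) that left 29.5% of the control level. It was the fall of rank 37 among 18193 genes. The other probe sets of Ccnd3, 1444323_at and 1438805_at, stayed between 2.18 and 3.21 on all arrays, at the low end of the scale, and their changes of -0.02 and 0.06 say little about the transcript.

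Ccnd2 was read by 7 probe sets, all with negative changes between -0.47 and -0.08, and none was called. At the brightest, 1416122_at, the Rad21 esiRNA arrays read 8.70, 8.68, 8.85 and 8.75, against 8.78, 9.003, 9.27 and 9.25 on the Luc esiRNA arrays. The groups overlapped through replicate 1 of the Luc esiRNA group, which read below replicate 3 of the Rad21 esiRNA group. The change was -0.33 ± 0.11 (SE, limma adjusted p = 0.10). Without replicate 1 of the Luc esiRNA group it was -0.43 with an adjusted p of 0.016. The other probe sets changed by -0.47 (1430127_a_at), -0.19 (1434745_at), -0.41 (1448229_s_at), -0.42 (1455956_x_at), -0.082 (1416123_at) and -0.15 (1416124_at). Arrays of both groups fell into replicates 1 and 2 and replicates 3 and 4 along a principal component. With the set as a block, 1416122_at, 1430127_a_at and 1455956_x_at were called (limma adjusted p = 0.020, 0.011 and 0.040), so whether Ccnd2 passed depended on the model.

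Ccnd1 was bright at all 3 of its probe sets, which did not move alike. The brightest, 1417420_at, averaged 12.74 ± 0.04 in Rad21 esiRNA cells and 12.74 ± 0.09 in Luc esiRNA cells (SD, n = 4 each), a difference of -0.01 with a 95% interval from -0.11 to 0.10. The dimmest, 1448698_at, read 10.15, 9.98, 10.13 and 10.04 on the Rad21 esiRNA arrays, against 10.34, 10.52, 10.33 and 10.30 on the Luc esiRNA arrays. Here the groups did not overlap and the change of -0.30 ± 0.06 was called (SE, limma adjusted p = 0.013). Within replicates 1 and 2 and within replicates 3 and 4 it changed by -0.36 and -0.23 without passing in either (limma adjusted p = 0.090 and 0.070). The third, 1417419_at, changed by -0.29 ± 0.13 without passing the test (SE, limma adjusted p = 0.22). Whether Ccnd1 fell therefore depends on the probe set read, and what part of its transcript each reads was not examined here.

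The changes of the D-type cyclins were also set against each other on the same arrays, as were those of the E-type cyclins and of the kinases, 7 pairs in all, chosen with the values known. With 4 against 4 arrays the exact two-sided permutation test cannot go below 0.0286. Pairs at that value had an adjusted p of 0.0333 over the 7 pairs, which depends on how many pairs reached it. Ccnd3 fell further than the others, with its change differing by -1.76 ± 0.11 from that of Ccnd1 and by -1.43 ± 0.15 from that of Ccnd2 (SE), each at that smallest p. Ccnd2 and Ccnd1 differed by -0.33 ± 0.16 in their changes, which did not pass (SE, exact permutation p = 0.11, adjusted p = 0.11).

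**Figure D2:**
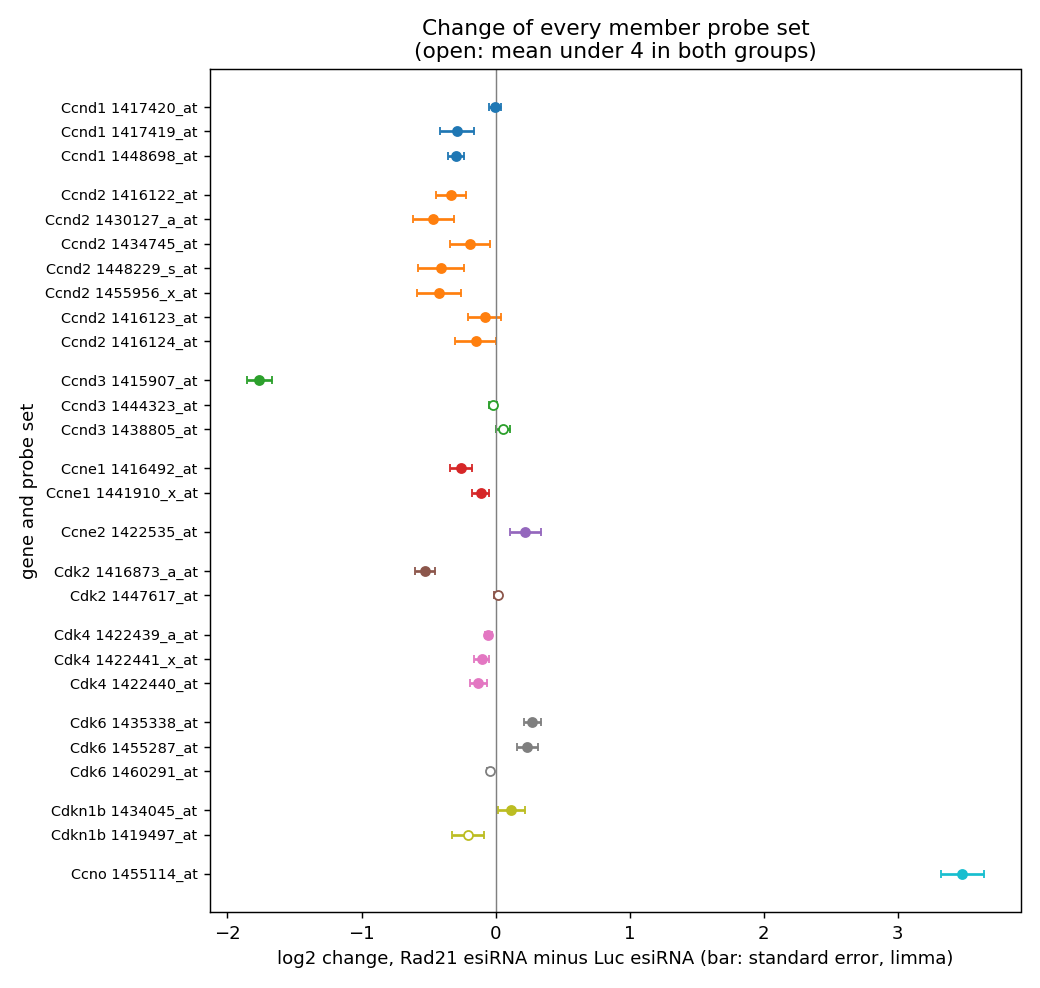
Log2 change, Rad21 esiRNA minus Luc esiRNA (horizontal axis), at each of the 27 member probe sets, grouped by gene from the brightest down, with bars for the SE of limma and open circles for means under 4 in both groups. The 7 Ccnd2 probe sets all lie left of 0, the Ccnd1 probe sets spread from -0.01 to -0.30, and the dim probe sets of Ccnd3, Cdk2 and Cdk6 lie near 0.

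Neither E-type cyclin gene passed the test. Ccne1 (1416492_at) read 11.86, 11.88, 12.18 and 12.11 on the Rad21 esiRNA arrays, against 12.32, 12.33, 12.23 and 12.18 on the Luc esiRNA arrays. The change of -0.26 ± 0.08 missed the threshold (SE, limma adjusted p = 0.085), and the groups overlapped through replicate 3 of the Rad21 esiRNA group. Its second probe set, 1441910_x_at, changed by -0.11 ± 0.06 (SE, limma adjusted p = 0.39). Ccne2, with a single probe set (1422535_at), averaged 9.49 ± 0.17 in Rad21 esiRNA cells and 9.27 ± 0.18 in Luc esiRNA cells (SD, n = 4 each), a difference of 0.22 with a 95% interval from -0.04 to 0.49 (limma adjusted p = 0.31). The changes of Ccne1 and Ccne2 differed by -0.48 ± 0.15 (SE, exact permutation p = 0.0286, adjusted p = 0.0333).

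Of the kinases, Cdk2 fell, Cdk6 rose slightly and Cdk4 did not pass the test. Cdk2, the partner of cyclin E, read 9.48, 9.51, 9.43 and 9.46 at 1416873_a_at on the Rad21 esiRNA arrays, against 10.11, 10.16, 9.86 and 9.85 on the Luc esiRNA arrays. The Rad21 esiRNA arrays lay close together and below every Luc esiRNA array. The change of -0.53 ± 0.08 was a 1.44-fold lower level (SE, limma adjusted p = 0.0033). A second Cdk2 probe set, 1447617_at, stayed at the low end of the scale, at 2.47 to 2.57.

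Cdk6, a partner of the D-type cyclins, read 8.82, 8.90, 8.75 and 8.66 at 1435338_at on the Rad21 esiRNA arrays, against 8.40, 8.52, 8.50 and 8.61 on the Luc esiRNA arrays. The groups were separated by a narrow gap, and the change was 0.27 ± 0.06 (SE, limma adjusted p = 0.023). The next brightest probe set, 1455287_at, changed by 0.24 ± 0.08 without passing the test (SE, limma adjusted p = 0.098), and 1460291_at stayed at the low end of the scale. The call on Cdk6 was lost when any 1 of 5 arrays was left out (replicates 1 and 2 of the Rad21 esiRNA group and replicates 1, 2 and 3 of the Luc esiRNA group), with adjusted p values of 0.051 to 0.064.

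Cdk4, the other partner of the D-type cyclins, was among the brightest members. It averaged 12.87 ± 0.03 in Rad21 esiRNA cells and 12.93 ± 0.04 in Luc esiRNA cells at 1422439_a_at (SD, n = 4 each), and the 95% interval of the difference ran from -0.12 to 0.01 (limma adjusted p = 0.26). Its other probe sets, 1422441_x_at and 1422440_at, changed by -0.10 and -0.13 and were not called. The changes of Cdk2 and Cdk4 differed by -0.47 ± 0.10, those of Cdk2 and Cdk6 by -0.80 ± 0.12, and those of Cdk6 and Cdk4 by 0.33 ± 0.05 (SE, exact permutation p = 0.0286 and adjusted p = 0.0333 for each pair).

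Cdkn1b, which encodes the inhibitor p27, did not pass the test. At 1434045_at the Rad21 esiRNA arrays read 10.03, 10.19, 9.89 and 10.23, against 10.15, 10.04, 9.89 and 9.79 on the Luc esiRNA arrays. The groups overlapped widely, and the difference of 0.12 had a 95% interval from -0.12 to 0.35 (limma adjusted p = 0.64). The other probe set, 1419497_at, lay at the low end, with means of 3.26 in Rad21 esiRNA cells and 3.47 in Luc esiRNA cells.

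Ccno was selected on its rise, and its values are given without a test. Its only probe set, 1455114_at, read 8.998, 8.945, 9.003 and 9.315 on the Rad21 esiRNA arrays, against 5.21, 5.94, 5.49 and 5.69 on the Luc esiRNA arrays. The groups lay far apart, with no array between them. The means were 9.07 ± 0.17 in Rad21 esiRNA cells and 5.58 ± 0.31 in Luc esiRNA cells (SD, n = 4 each), and the change was 3.48 ± 0.16 (SE), an 11.2-fold ratio. Among the cyclin genes described here, the change nearest to it in size was the fall of Ccnd3.

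The arrays of each group fell into replicates 1 and 2 and replicates 3 and 4 along a second principal component that held 11.6% of the variance, beside 66.2% for the component that separated the esiRNA groups. The labels name no batch, so what the sets are is not known. The fall of Rad21 itself was deeper in replicates 1 and 2 than in replicates 3 and 4 at all 3 of its probe sets. At the brightest, the Rad21 esiRNA arrays read 11.69, 11.75, 12.37 and 12.52, against 13.62, 13.42, 13.83 and 13.79 on the Luc esiRNA arrays. Whether the differences between the sets given below go with the depth of that fall was not tested. Ccnd3 changed by -1.91 in replicates 1 and 2 and by -1.61 in replicates 3 and 4, Cdk2 by -0.64 and -0.41, and Ccno by 3.39 and 3.57. Cdk6 changed by 0.40 in the first set and by 0.15 in the second, where the limma adjusted p was 0.27. Ccnd2 changed by -0.20 in replicates 1 and 2 and by -0.46 in replicates 3 and 4, where it was called (limma adjusted p = 0.026).

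Ccne1 at its brightest probe set changed by -0.46 in replicates 1 and 2 (limma adjusted p = 0.0081) and by -0.06 in replicates 3 and 4 (limma adjusted p = 0.47). The difference between the sets, 0.40, just passed the interaction test of limma (adjusted p = 0.0497), which called 0.777% of all probe sets. It was the only member probe set of 27 to pass, and it no longer passed with a minimum mean of 4, after quantile normalization or with array weights, where the adjusted p was 0.060 to 0.11. The second Ccne1 probe set differed by 0.20 between the sets without passing (limma adjusted p = 0.54). At 1416123_at of Ccnd2 the sets differed by -0.47, more than for Ccne1 but without passing (limma adjusted p = 0.32).

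**Figure D3:**
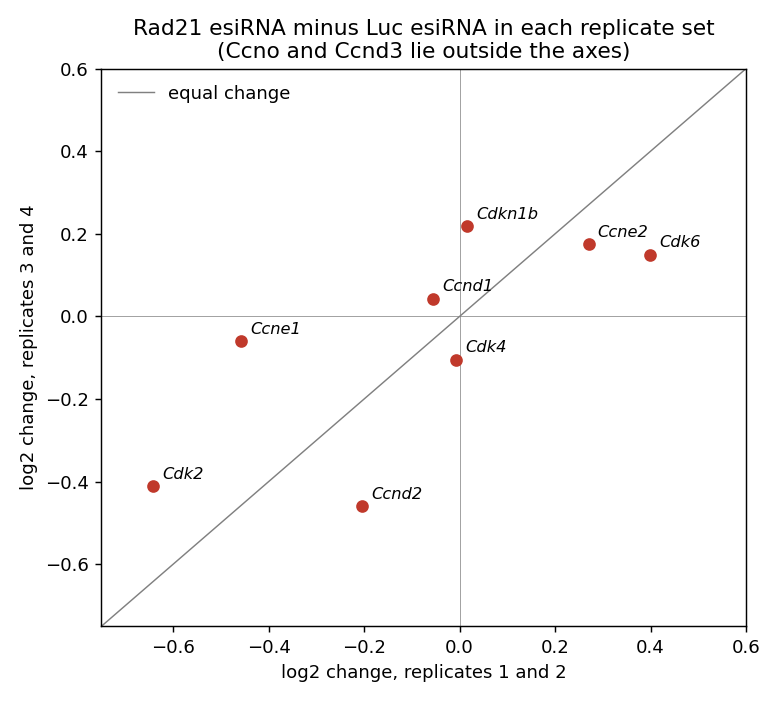
Log2 change, Rad21 esiRNA minus Luc esiRNA, within replicates 1 and 2 (horizontal axis) and within replicates 3 and 4 (vertical axis), for 8 members at the brightest probe set; the line marks equal change, and Ccno (3.39 and 3.57) and Ccnd3 (-1.91 and -1.61) lie outside the axes. Ccne1 lies farthest above the line, at -0.46 and -0.06, and Ccnd2 below it, at -0.20 and -0.46.

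Among genes around this core, 5 of 7 other inhibitors of the Cdks rose (71.4%) and 0 fell, beside 10.1% of all genes rising, with a median change of 0.74 beside 0.00 for all genes. Cdkn2b, which encodes the Cdk4 and Cdk6 inhibitor p15, averaged 6.85 ± 0.26 in Rad21 esiRNA cells and 5.22 ± 0.24 in Luc esiRNA cells (SD, n = 4 each), a change of 1.63 ± 0.16 (SE, limma adjusted p = 0.00061). Cdkn1c, which encodes p57, rose by 0.99 ± 0.11 (limma adjusted p = 0.0011), and Cdkn2a, the gene of p16 and p19Arf, by 0.74 ± 0.14 (limma adjusted p = 0.0097). Cdkn3, which encodes a phosphatase acting on Cdk2, rose by 0.70 ± 0.11 (limma adjusted p = 0.0040).

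Cdkn1a, which encodes the p53 target p21, rose by 0.74 ± 0.18 (SE, limma adjusted p = 0.031), at both of its probe sets. Its call was lost on leaving out any 1 of 5 arrays, replicates 1 and 2 of the Rad21 esiRNA group and replicates 2, 3 and 4 of the Luc esiRNA group, with adjusted p values up to 0.085. Cdkn2d (0.12) and Cdkn2c (0.03, at the low end of the scale) were not called.

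In the Rb family, Rb1 rose by 1.01 ± 0.11 (SE, limma adjusted p = 0.00098) at both of its probe sets. Rbl1, which encodes p107, fell by 0.30 ± 0.08 (limma adjusted p = 0.041), a call that 7 of the 8 omissions of 1 array removed, all but that of replicate 3 of the Luc esiRNA group. Rbl2, which encodes p130, changed by 0.40 ± 0.21 (limma adjusted p = 0.35). Of 10 E2F and DP genes, 2 rose (E2f7 and E2f5) and 3 fell (E2f2, E2f8 and Tfdp2), beside 22.6% of all genes called, with a median of -0.07. E2f2, an activator E2F, fell by 0.76 ± 0.19 (limma adjusted p = 0.032), and this call too was lost in 7 of the 8 omissions, all but that of replicate 4 of the Rad21 esiRNA group. The calls on Tfdp2 and E2f5 were lost in 6 and 5 of the 8 omissions, with adjusted p values up to 0.11 and 0.084.

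Of 19 E2F target genes of S phase, 7 fell (36.8%) and 0 rose, beside 12.6% of all genes falling and 10.1% rising, with a median change of -0.12. Mybl2, which encodes B-Myb, averaged 10.49 ± 0.06 in Rad21 esiRNA cells and 11.32 ± 0.11 in Luc esiRNA cells (SD, n = 4 each), a change of -0.83 ± 0.06 (SE, limma adjusted p = 0.00014). Orc1, of the origin recognition complex, fell by 0.60 ± 0.03 (limma adjusted p = 3.1e-05), and Pola1, the catalytic subunit of DNA polymerase alpha, fell by 0.59 ± 0.06 (limma adjusted p = 0.00053), each at 1 of 2 probe sets. Ccne1 and Ccne2, which are E2F targets too, did not pass the test. The call on Rrm1, also among the 7, was lost in 7 of the 8 omissions of 1 array, with adjusted p values up to 0.099.

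The Cdk activation list of 8 genes also holds Wee1 and Pkmyt1, kinases that inhibit Cdks. Of the 8, 2 fell (25.0%, beside 12.6% of all genes) and 0 rose. Cdc25a, a phosphatase that activates Cdk2, changed by -0.41 ± 0.07 (limma adjusted p = 0.0072) at 1 of 3 probe sets, and Mnat1, a subunit of the Cdk-activating kinase, by -0.38 ± 0.04 (limma adjusted p = 0.00084). Of 14 genes for the turnover of G1 cyclins and p27, 3 rose (Cks1b, Rbx1 and Cul1) and 2 fell, 35.7% called beside 22.6% of all genes. Fbxo31, which in human cells directs cyclin D1 to degradation, fell by 0.60 ± 0.12 (limma adjusted p = 0.012) at 1 of 2 probe sets, and Skp2, which directs p27 to it, fell by 0.24 ± 0.02 (limma adjusted p = 0.00050) at 3 of 6. Rbx1 lay at the low end of the scale and lost its call in 6 of the 8 omissions, with adjusted p values up to 0.074.

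Of 22 other cyclin genes, 3 rose (Ccng1, Ccnj and Ccny) and 0 fell, 13.6% called beside 22.6% of all genes. Ccng1, a p53 target, had the largest change of the called ones, 0.67 ± 0.10 (SE, limma adjusted p = 0.0034). Ccny lost its call in 5 of the 8 omissions, with adjusted p values up to 0.069. Of 18 other Cdk genes, 2 rose and 2 fell, 22.2% called and near the share of all genes. Cdk14, a kinase that pairs with cyclin Y, averaged 6.45 ± 0.16 in Rad21 esiRNA cells and 4.37 ± 0.14 in Luc esiRNA cells (SD, n = 4 each), a change of 2.08 ± 0.09 (SE, limma adjusted p = 2.2e-05), at 1 of its 3 probe sets. Cdkl2 fell by 0.82 ± 0.10 (limma adjusted p = 0.0014), likewise at 1 of 3.

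**Figure D4:**
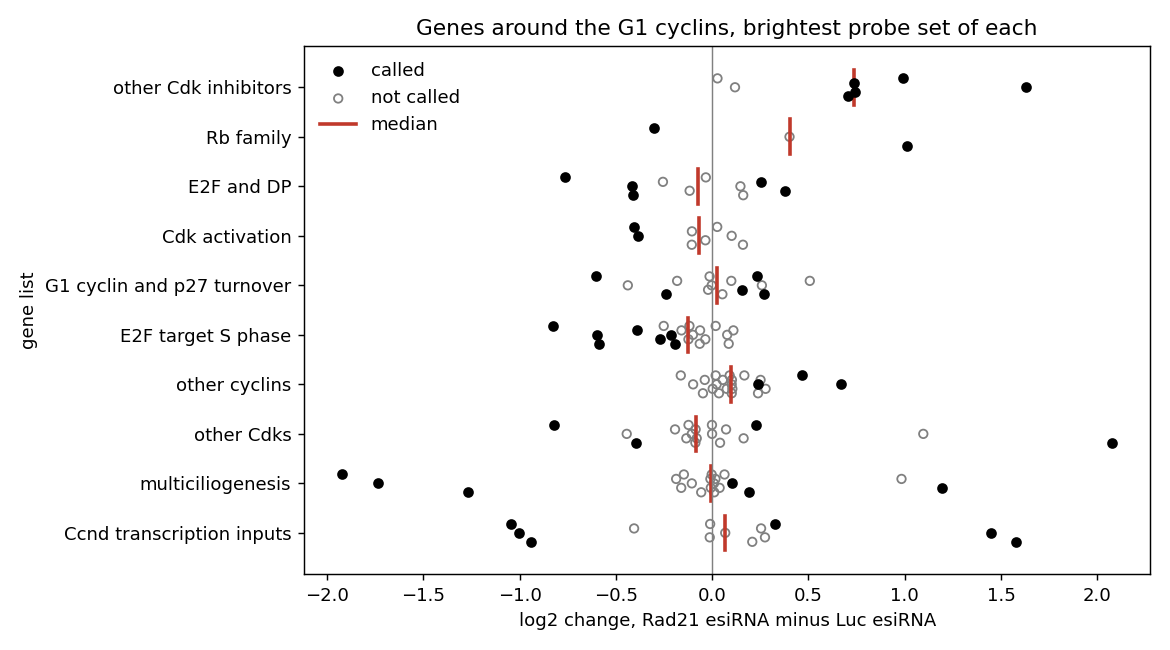
Log2 change, Rad21 esiRNA minus Luc esiRNA (horizontal axis), of each measured gene of 10 lists at its brightest probe set, with filled circles for called genes, open circles for the rest and a red line at each list's median. The medians run from -0.12 (E2F targets of S phase) to 0.74 (other Cdk inhibitors).

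Factors known to act on D-type cyclin genes moved in both directions, 3 rising and 3 falling of 13 (46.2% called, beside 22.6% of all genes). Lef1, a partner of beta-catenin, rose by 1.58 ± 0.20 (SE, limma adjusted p = 0.0017) at 1 of 2 probe sets, and Jun, an AP-1 subunit, by 1.45 ± 0.11 (limma adjusted p = 0.00021). Myc, which binds E-boxes, fell by 0.94 ± 0.07 (limma adjusted p = 0.00018), while Mycn rose by 0.32 ± 0.04 (limma adjusted p = 0.0012). Ets2 fell by 1.04 ± 0.11 (limma adjusted p = 0.00087) and Klf5 fell to a mean of 11.71, against 12.71 in Luc esiRNA cells (limma adjusted p = 0.00042). Of the members whose matched promoter held an E-box, Cdk4 was not called and Cdk6 was called and rose. The promoters of Ccnd1 and Ccnd2 were not searched, and those of Ccnd3 held no E-box. Whether Myc or Mycn acts on either gene here was not tested.

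Of 20 genes of multiciliated cells and centriole multiplication, the setting in which Ccno is best known, 3 rose and 3 fell (30.0% called, beside 22.6% of all genes), with a median of 0.00, and 7 lay at the low end in both groups. Foxj1, the regulator of motile cilia, averaged 2.90 in Rad21 esiRNA cells and 2.95 in Luc esiRNA cells, and Deup1, a scaffold of centriole multiplication, 2.40 and 2.41, so both stayed at the low end while Ccno was high. Dnaic1, a dynein gene of motile cilia, rose by 1.19 ± 0.19 (SE, limma adjusted p = 0.0050) to a mean of 4.15, against 2.95 in Luc esiRNA cells. Myb fell by 1.92 ± 0.18 (limma adjusted p = 0.00051) at all 3 of its probe sets, Tekt1 fell by 1.74 ± 0.27 (limma adjusted p = 0.0048), and Rfx2, one of the RFX factors, fell by 1.27 ± 0.12 (limma adjusted p = 0.00047) at 1 of 4. Plk4 and Sass6, which every cycling cell uses to copy centrioles, rose by 0.10 and 0.19, calls that 4 and 6 of the 8 omissions removed (adjusted p values up to 0.055 and 0.11).

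On the chromosomes, the nearest 2 measured genes on each side of each member gave 38 neighbours in RefSeq order, with none measured before Cdk6. Of these, 5 rose and 5 fell, 26.3% called, beside 22.6% of all genes, and their median change was 0.01. Next to Ccno, Dhx29 changed by 0.00 and Mtrex by -0.22 on the one side, neither called. On the other, Cdc20b stayed at the low end (2.03 in Rad21 esiRNA cells and 2.02 in Luc esiRNA cells), and Gpx8 beyond it averaged 8.17 ± 0.05 in Rad21 esiRNA cells and 6.62 ± 0.14 in Luc esiRNA cells (SD, n = 4 each), a change of 1.55 ± 0.07 (SE, limma adjusted p = 2.2e-05). Mcidas, which lies between Ccno and Cdc20b, was not analysed here. Of the 4 measured neighbours, 1 was called.

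Around Ccnd3, Taf8 (-0.04) and Med20 (-0.16) were not called, Bysl fell by 0.39 ± 0.05 (SE, limma adjusted p = 0.0015) and AI661453 rose by 0.85 ± 0.23 (limma adjusted p = 0.044). Next to Cdk2, Pmel fell by 1.13 ± 0.05 (limma adjusted p = 2.1e-05), while Dgka (0.30), Rab5b (-0.36) and Pym1 (0.02) were not called. Ccne1 lay between Uri1, which fell by 0.45 ± 0.03 (limma adjusted p = 0.00019), and 1600014C10Rik, which changed by 0.09, and Plekhf1 beyond it fell by 0.45 ± 0.11 (limma adjusted p = 0.032). Tigar, next to Ccnd2, fell by 0.82 ± 0.08 (limma adjusted p = 0.00068), and Trp53inp1, next to Ccne2, rose by 0.95 ± 0.10 (limma adjusted p = 0.00069). Dpy19l4 near Ccne2 (0.27) and Tspan31 next to Cdk4 (0.14) rose as well, and no measured neighbour of Ccnd1, Cdk6 or Cdkn1b was called. The 28 neighbours that were not called changed by -0.36 to 0.49.

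**Figure D5:**
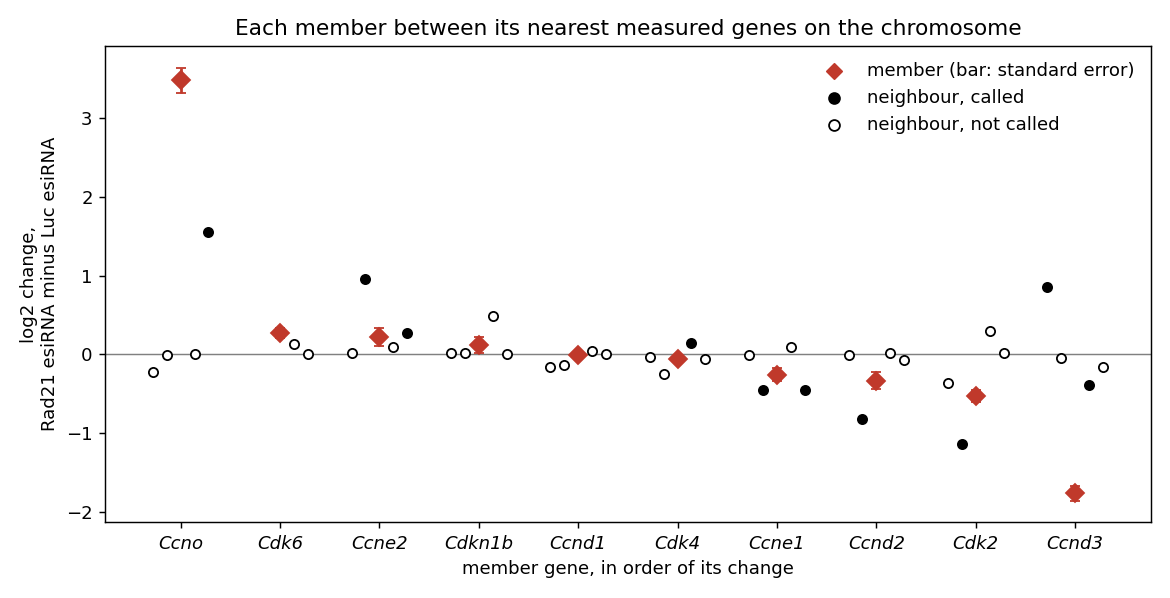
Log2 change, Rad21 esiRNA minus Luc esiRNA (vertical axis), of each member (red diamond, bar for the SE of limma) and of its nearest measured neighbours in chromosome order to its left and right (filled circles called, open circles not). Ccno (3.48) and Ccnd3 (-1.76) lie far from all their neighbours, of which Gpx8 (1.55) moved most.

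The genes whose values over the 8 arrays, taken from the Luc esiRNA mean, lay nearest to those of Ccno were Greb1l, Irgm1, Hs6st2, Vwce and Hecw2, with root mean square differences of 0.21 to 0.30 on the log2 scale. For Ccnd3 they were the ESC growth factor gene Fgf4, then Tst, Scn3a, Ly75 and Oas1a, at 0.09 to 0.14. Fgf4 changed by -1.71, beside -1.76 for Ccnd3. These lists describe likeness over 8 arrays in 2 groups, which a change of like size alone can give.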

How the data were processed

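Total RNA of R1/E ESCs was measured on Affymetrix arrays. The authors made the deposited log2 values with GCRMA, which corrects the background by probe GC content, normalizes the arrays to a common distribution and summarises probes per probe set, in Partek 6.4. This hides a shift of all transcripts in one direction and compresses dim values. The labels give 250 ng of RNA for labelling, and the study's methods give another unit for it. Scanner files were not used here, and arrays carry no read depth, so their number limits the precision.

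Groups and replicate numbers came from the labels. After 64 control probe sets were left out, Rad21 esiRNA was compared with Luc esiRNA with limma 3.58.1 in R 4.3.3 (lmFit and eBayes for each probe set, two-sided), with no block and no filter. The methods state an analysis of variance, which was an alternative. The Benjamini-Hochberg adjustment covered all 45037 probe sets, and values under 0.05 were calls. The interaction test asked whether the change differed between replicates 1 and 2 and replicates 3 and 4. Symbols came from the platform annotation, which gave a single symbol for 34945 probe sets, several for 932 and none here for 9160. Probe sets with several named no gene. A gene was read at its brightest probe set, by mean over 8 arrays. RefSeq GRCm38.p6 gave the gene order and the promoters.

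The members and the gene lists were chosen with earlier results of these data known. The rule for naming takes in every probe set of the members, called genes of each list with a change of at least 0.5 (up to 6 in each direction), all Rb family genes and other Cdk inhibitors, the nearest 2 measured neighbours on each side, the 5 genes most like Ccno and Ccnd3, and Rad21. Of the neighbours, those not called are mostly given by their range. Genes outside this rule, such as Skp2, Cdc25a, Mycn, Foxj1 and Plk4, were named after their values were seen. The lists on E2F targets, other cyclins, Cdk activation and other Cdks share 3 genes. Alternatives were a variance trend with a robust prior, a replicate block, a block for the replicate set, fits within each set, quantile normalization, a minimum mean of 4, array weights, centring on Actb, on Gapdh or on probe sets with a mean of at least 8, leaving out probe sets ending in _x_at or _s_at, averaging a gene's probe sets, stricter thresholds and leaving out each array. Tables were made with pandas 2.3.3 and scipy 1.17.1 and plots with matplotlib 3.10.9.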

Additional observations from a re-analysis of the deposited data

Results flagged for a closer look

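Of 54 sets of 4 values (27 probe sets in both groups), 4 held an array that lay far from the other 3 by Dixon's test at 95%, and chance alone marks about 1 in 20 such sets. Replicate 4 of the Rad21 esiRNA group read 9.32 for Ccno, with the nearest other array at 9.003. Replicate 2 of the Luc esiRNA group read 11.75 for Ccnd1 at 1417419_at, with the nearest at 11.34, and 3.84 for Cdkn1b at 1419497_at, with the nearest at 3.40. Replicate 4 of the Luc esiRNA group read 5.54 for Ccnd2 at 1416124_at, with the nearest at 4.90. None of those that were tested was called. The change of Ccne1 at 1416492_at was higher by 0.40 on the log2 scale in replicates 3 and 4 than in replicates 1 and 2, a difference that passed the interaction test of limma (adjusted p = 0.0497).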

How the results depend on the processing

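Ccnd3 and Cdk2 kept their direction and their calls under all 22 alternatives to the fit, with changes of -1.91 to -0.57 for Ccnd3, the smallest of them where its dim probe sets were averaged in, and -0.64 to -0.26 for Cdk2. Under the stricter thresholds both passed an adjusted p under 0.01, and at 2-fold or more only Ccnd3 passed. Ccno stayed between 3.36 and 3.60. Cdk6 kept its direction but lost its call under 8 alternatives, among them the methods' analysis of variance (adjusted p = 0.054), and Ccne2 passed under none. Ccnd2 passed under 5, among them a block for the replicate set (adjusted p = 0.020) and a minimum mean of 4 (adjusted p = 0.042), and Ccne1 under 3, among them the same minimum (adjusted p = 0.042). Cdk4 passed only with array weights (adjusted p = 0.049).

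The change of Ccnd1 at its brightest probe set, -0.01, turned to 0.043 within replicates 3 and 4, to 0.032 after quantile normalization, to 0.034, 0.023 and 0.010 after centring on Actb, on bright probe sets and on Gapdh, and to 0.025 with array weights, and ran between -0.044 and 0.021 over the omissions of 1 array. That of Cdkn1b turned to -0.044 with the mean of its probe sets. None of these values was called.

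Of the 26 member probe sets, 4 were called as reported and 7 with a block for the replicate set. A minimum mean of 4 left 21 of them, of which 7 were called. At an adjusted p under 0.01 there were 2 calls, at 2-fold or more 1, and with 1 array left out 3 to 5. Of the 9 member genes, 3 were called as reported, 5 with a minimum mean of 4, 5 with array weights, 1 at 2-fold or more, and 2 to 4 with 1 array left out. Of 131 genes in the lists around the core, 45 were called as reported, 11 at 2-fold or more, and 35 to 43 with 1 array left out. Over all 45037 probe sets, 6697 calls became 8177 with a block for the replicate set and 7462 with array weights. They became 3893 at an adjusted p under 0.01, 1021 at 2-fold or more, and 5395 to 6210 with 1 array left out. With a minimum mean of 4, 7645 of 18983 probe sets were called. The member probe set whose change differed between replicate sets, 1 as reported, became 0 with a minimum mean of 4, 0 after quantile normalization and 0 with array weights. The cause of these shifts was not tested.

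Same-numbered arrays of the groups deviated together only weakly (r = 0.02, 0.13, 0.07 and 0.13), and not every array correlated best with its own number. Across the groups, arrays of the same replicate set correlated positively (up to 0.20) and arrays of different sets negatively (down to -0.19). These correlations do not settle whether same-numbered samples were handled as pairs. With the replicate number as a block, 4 member probe sets were called, 0 rising and 4 falling, and 2 of the 9 genes. The 4 were those of Ccnd3 and Cdk2 and 2 of Ccnd2 (1430127_a_at and 1448229_s_at), while Ccnd1 at 1448698_at (adjusted p = 0.064) and Cdk6 (adjusted p = 0.083) were no longer called. All probe sets shifted by a median under 0.1 under each scaling. Dim probe sets limit what Ccnd3, Cdk2 and Cdkn1b show beyond the brightest one. Of the Cdk6 probe sets, only 1460291_at was dim.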
